A study of Homo sapiens with 6 samples.

Results

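The genes of cholesterol and fatty acid synthesis were examined in an EGFR-mutant lung cancer line and in a clone of it that had become resistant to an EGFR kinase inhibitor. They were taken from a list of 42 genes for the enzymes of both pathways, the sterol sensors and the enzymes that activate fatty acids, and every probe set annotated to one of them was used. This gave 75 probe sets of 22215 tested on the arrays. Of the 42 genes, 36 had at least 1 probe set that named no other gene and are called measured below, out of 11963 genes measured in all. CYP51A1, FADS1 and ELOVL1 were read only by probe sets that also name another gene, and FDFT1, STARD4 and ACSL3 were not analysed here. WZR6 is clone 6 of NCI-H1975, a line of human non-small cell lung cancer, isolated after growth in rising amounts of the EGFR inhibitor WZ4002, and it is labelled resistant. The parental NCI-H1975 cells are labelled sensitive. Each group had 3 samples with 1 array each, and both groups were grown in RPMI with 5% serum and harvested while growing exponentially. Resistance is represented by this 1 clone, and the sources used here do not say whether WZ4002 was in the medium when cells were collected.

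Sterols and isoprenoids are built from acetyl-CoA through mevalonate, which gives farnesyl diphosphate, then squalene, lanosterol and cholesterol. Fatty acids are built from the same acetyl-CoA by acetyl-CoA carboxylase and fatty acid synthase and are then desaturated, elongated and joined to coenzyme A. When sterols in the endoplasmic reticulum are low, SCAP escorts SREBP proteins to the Golgi, where they are cut to release transcription factors for many of these genes, and INSIG proteins hold SCAP back when sterols are ample. In the lung, alveolar cells use both pathways to make surfactant lipids.

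Values are log2 intensities of 1 probe set per gene, the brightest of its own over all arrays, and a difference is WZR6 minus parental. A gene is said to have risen or fallen where its adjusted p was under 0.05 in limma (Benjamini-Hochberg over all 11963 genes, two-sided). The levels of different genes cannot be set against each other on this scale. Arrays correlated across probe sets with r of 0.9978 to 0.9983 within a group and 0.9815 to 0.9826 between groups, and no array stood apart. The keratin transcript KRT18 averaged 14.02 in WZR6 and 14.14 in parental cells and was not called. EPCAM averaged 6.17 in WZR6 and 12.43 in parental cells, and CDH1 averaged 6.32 and 12.01, so that these defining epithelial markers were far lower in the clone. KRT19 averaged 11.13 in WZR6 and 12.84 in parental cells, and NKX2-1 6.44 and 8.58. Whether the cells of the clone remained epithelial was not tested. Of the marker lists, 6 of 7 epithelial and lung genes fell in WZR6 (85.7%) and 2 of 5 leukocyte genes fell (40%). Among 7 fibroblast and endothelial genes 1 rose and 1 fell (14.3% each). These shares stand beside 24.5% of all genes that rose and 23.5% that fell. The pan-leukocyte gene PTPRC averaged 4.17 in WZR6 and 4.20 in parental cells, both under 5.27, which is the first quartile of all values. LYZ also lay under it, at 3.96 in WZR6 and 3.88 in parental cells. The other leukocyte genes lay above it. CD14 averaged 7.49 in WZR6 and 8.45 in parental cells, ITGB2 5.49 and 6.86, and CD3E 5.74 and 5.80. All 7 adipocyte and hepatocyte genes, markers of other lipid-making cells, were not called in limma (1 of them at an unadjusted p under 0.05), with group means from 3.86 to 6.83 in WZR6 and from 3.90 to 6.74 in parental cells. In bulk samples fewer cells of a type and less RNA per cell cannot be told apart. Nothing in the labels says that the 3 samples of a group came from separate cultures, so p-values measure the spread between these samples, which may be technical.

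Of the 36 measured genes, 18 rose in WZR6 (50%) and 9 fell (25%), and 9 were not called. Over all genes on the array 48.0% were called; 24.5% rose and 23.5% fell. The share that rose was thus above the share over all genes, and the share that fell lay near it. The median difference was 0.22 over the 36 genes and 0.02 over all genes. These genes are mostly bright, and bright genes were called more often. Among genes measured at or above the median level of all values, 19 of 32 lipid synthesis genes rose, against 38.8% of all genes, and 10 fell, against 35.5%. Most of the called genes changed by less than 1.5-fold. A rise of at least 1.5-fold was called for 5 genes (13.9%), above the 5.12% of all genes. A fall of that size was called for 0 genes, against 7.97% of all genes in limma. The largest fall was 1.43-fold on the brightest probe sets, although a dimmer ACACA probe set differed by -0.71. The WZR6 and parental arrays did not overlap for 28 of the 36 genes (77.8%), against 56.3% of all genes. The count of genes that fell dropped to 5 without parental replicate 1, and no removal of a single array took the count that rose below 17. Without _x_at and _s_at probe sets, 2 types whose probes may match more than 1 transcript, 23 genes were left, of which 14 rose and 2 fell.

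**Figure D1:**
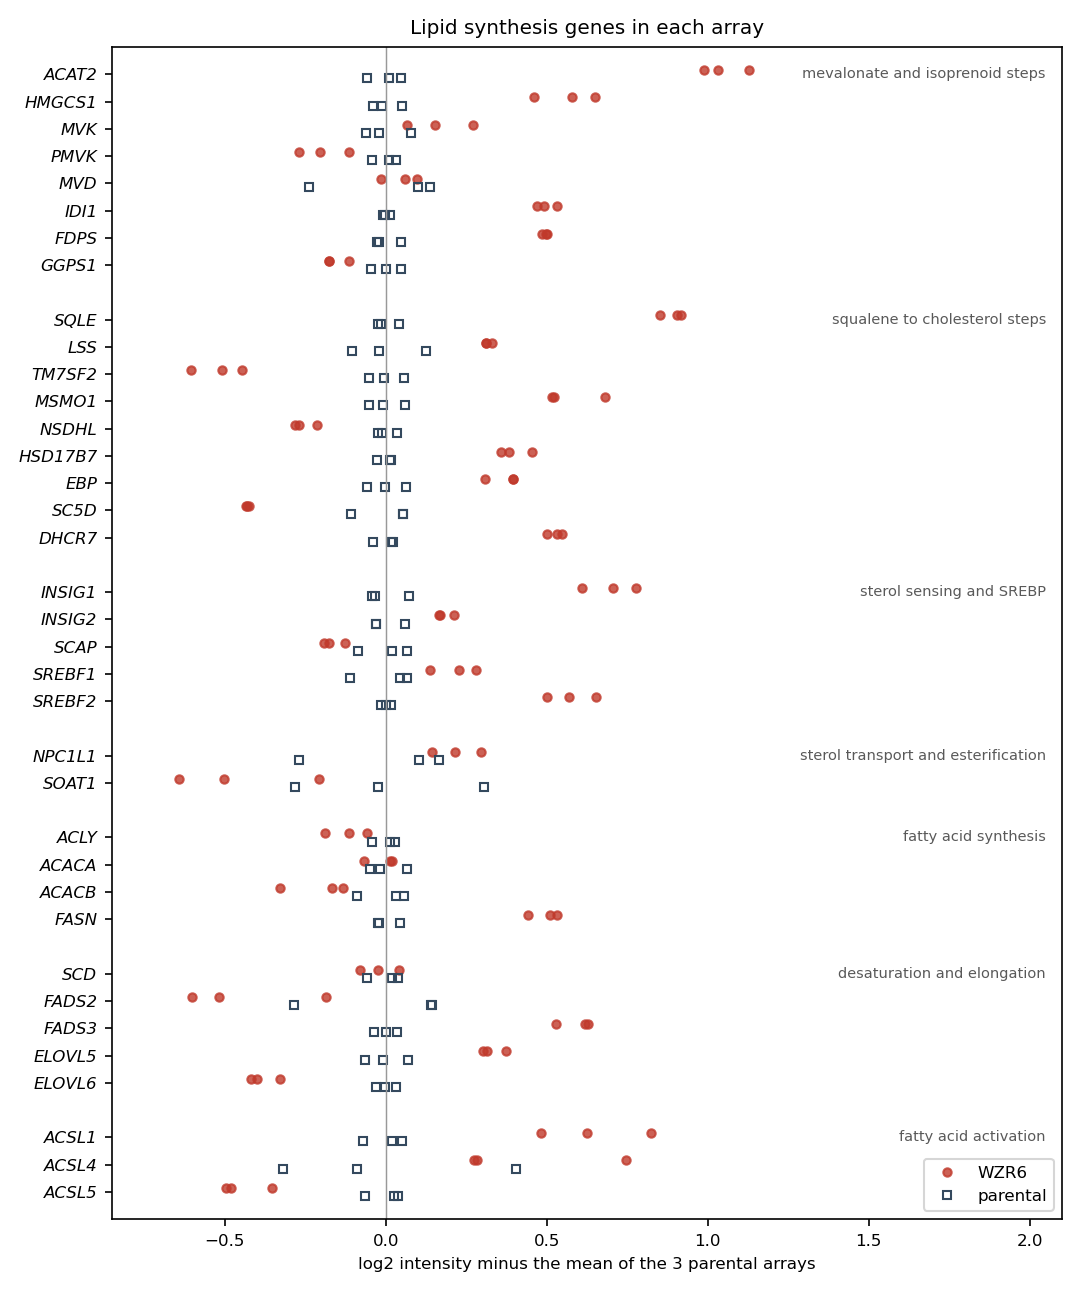
Each row is 1 measured gene, grouped by its step in lipid synthesis, and the horizontal axis is the log2 intensity of each array minus the mean of the 3 parental arrays of that gene. Filled circles are the 3 WZR6 arrays and open squares the 3 parental arrays; the arrays of ACAT2 and SQLE lie farthest apart, while those of SCD, ACACA and MVD are interleaved.

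The early steps, from acetyl-CoA to farnesyl and geranylgeranyl diphosphate, rose for 4 of 8 genes (50%) and fell for 2 (25%), against 24.5% and 23.5% of all genes. Those that rose were ACAT2, HMGCS1, IDI1 and FDPS. ACAT2, the cytosolic thiolase that joins acetyl-CoA molecules at the start of the pathway, gave 10.15, 10.19 and 10.29 in WZR6, against 9.10, 9.17 and 9.21 in parental cells. Its lowest WZR6 array was above every parental array. The difference was 1.05 ± 0.05 (SE, n = 3 each), a 2.07-fold rise (95% interval 1.89 to 2.27, adjusted p = 1.22e-05 in limma), the largest among the 36 genes. HMGCS1, which makes HMG-CoA, gave 9.78, 9.66 and 9.85 in WZR6, against 9.19, 9.16 and 9.25 in parental cells. The groups did not overlap, and both of its probe sets rose, by 0.56 and 0.49. IDI1, the isomerase that makes the reactive isoprenoid unit, gave 10.39, 10.45 and 10.41 in WZR6, against 9.92, 9.93 and 9.91 in parental cells. The spread within each group was small beside the difference of 0.50 ± 0.04 (SE, adjusted p = 7.99e-05 in limma), and its second probe set rose by 0.53. Both IDI1 probe sets are of the type _x_at. FDPS, farnesyl diphosphate synthase, rose by 0.49 ± 0.04 (SE).

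Of the kinases and the decarboxylase between HMG-CoA and the isoprenoid unit, 1 fell and the others were not called. PMVK, phosphomevalonate kinase, averaged 10.19 ± 0.08 (SD) in WZR6 and 10.39 ± 0.04 in parental cells and fell by 0.20 on the log2 scale (adjusted p = 0.0222 in limma). That call was lost without WZR6 replicate 1 or 3 or parental replicate 1 or 2, with adjusted p up to 0.0697. MVK, mevalonate kinase, differed by 0.16 ± 0.07 (SE, adjusted p = 0.0882 in limma), and all 3 of its probe sets were higher in WZR6, by 0.16, 0.22 and 0.30. That of 0.22 was called, as was the mean of all 3, at 0.23, and MVK was also called when only probe sets at or above the median level were tested (adjusted p = 0.0397). MVD, the decarboxylase, differed by 0.05 (95% interval -0.20 to 0.29). GGPS1, which makes geranylgeranyl diphosphate, is uncertain, since its own probe sets were called in opposite directions. The brighter one gave 10.90, 10.84 and 10.84 in WZR6, against 11.07, 10.97 and 11.02 in parental cells. The dimmer one gave 9.15, 9.04 and 9.15 in WZR6, against 8.68, 8.66 and 8.80 in parental cells. The groups did not overlap on either probe set, with differences of -0.16 and 0.40. Of the 21 lipid synthesis genes with several own probe sets, only GGPS1 showed such opposite calls. The fall on the brighter GGPS1 probe set was not called without WZR6 replicate 2 or 3 or parental replicate 1 or 3, with adjusted p up to 0.0905.

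The later steps, from squalene to cholesterol, were called for all 9 measured genes, with 6 higher (66.7%) and 3 lower (33.3%) in WZR6. Over all genes these shares were 24.5% and 23.5%. SQLE, squalene epoxidase, a rate-controlling step of sterol synthesis, gave 10.60, 10.65 and 10.66 in WZR6, against 9.72, 9.73 and 9.79 in parental cells. All 3 WZR6 arrays were above the parental arrays, and all 3 SQLE probe sets rose, by 0.71 to 0.89. MSMO1, which oxidises methyl groups of early sterols, gave 11.07, 11.07 and 11.23 in WZR6, against 10.50, 10.54 and 10.61 in parental cells. DHCR7, which reduces dehydrocholesterol to cholesterol, gave 9.39, 9.42 and 9.44 in WZR6, against 8.90, 8.85 and 8.91 in parental cells. For both genes the groups were apart, with differences of 0.57 ± 0.06 and 0.53 ± 0.04 (SE), and the second DHCR7 probe set rose by 0.67. The ketosterol reductase HSD17B7 rose by 0.40 on its only probe set, which is of the type _x_at. The sterol isomerase EBP rose by 0.37 and lanosterol synthase, LSS, by 0.32, although 1 of the 3 LSS probe sets, at 0.27, was not called. EBP rose on all 3 of its probe sets, by 0.36 to 0.38.

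The genes of this stretch that fell were TM7SF2, NSDHL and SC5D. TM7SF2, a sterol reductase, averaged 6.25 ± 0.08 (SD) in WZR6 and 6.77 ± 0.06 in parental cells and had the largest fall of the 36 genes, with a difference of -0.52 ± 0.06 (SE, adjusted p = 0.000329 in limma). NSDHL, a dehydrogenase that helps remove sterol methyl groups, differed by -0.25, and its second probe set by -0.13 with no call. SC5D, the desaturase before DHCR7, gave 10.04, 10.05 and 10.04 in WZR6, against 10.53, 10.37 and 10.53 in parental cells, a difference of -0.43. Its second probe set had both means below the lower quartile of all values and differed by 0.12 with no call. CYP51A1, the lanosterol demethylase, was read by 2 probe sets that also name LRRD1. The brighter one gave 9.95, 9.78 and 10.19 in WZR6, against 10.20, 10.27 and 10.53 in parental cells, and the other differed by -0.04. All 3 WZR6 arrays of the brighter CYP51A1 probe set lay below the parental arrays, but its difference of -0.36 was not called (adjusted p = 0.0592 in limma over probe sets).

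The sterol sensors and SREBP factors rose for 4 of 5 genes (80%, against 24.5% of all genes). INSIG1, the sterol-regulated protein that retains SCAP, gave 9.92, 10.02 and 10.09 in WZR6, against 9.28, 9.27 and 9.38 in parental cells. The groups were well apart, and its 3 probe sets rose by nearly the same amount, 0.70 to 0.72. SREBF2, which encodes SREBP2, the main activator of sterol genes, gave 8.19, 8.34 and 8.26 in WZR6, against 7.71, 7.68 and 7.69 in parental cells. Its 2 probe sets rose by 0.58 and 0.60. SREBF1, whose products act mainly on fatty acid genes, gave 9.14, 9.19 and 9.05 in WZR6, against 8.96, 8.98 and 8.80 in parental cells. The groups were separated by less than 0.1, with a difference of 0.22 ± 0.07 (SE, adjusted p = 0.0318 in limma). The SREBF1 call was lost without WZR6 replicate 1 or 2 or parental replicate 1 or 3, with adjusted p up to 0.101, under cyclic loess scaling (adjusted p = 0.0621) and with a floor at the lower quartile (0.0573). INSIG2, the second retention protein, rose by 0.18 (95% interval 0.07 to 0.29) and INSIG1 by 0.70 (0.55 to 0.84); the difference between these rises was not tested. SCAP differed by -0.16 (adjusted p = 0.0413 in limma), a fall that held in only 1 of 6 removals of a single array, that of parental replicate 3, and not under median centring (adjusted p = 0.0976) or without _x_at and _s_at probe sets (0.0569).

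The bases before the start of 5 of these genes are shown because genes that rose together can be compared with 1 that fell for letters linked to sterol control. They come from the RefSeq promoter table of GRCh38.p14, in which 38 of the 42 genes had an entry, and run 5′ to 3′ on the strand of the gene over the 250 bases before its start. Their places are chr22:41832855-41833104 on the + strand for SREBF2, chr7:155297628-155297877 on the + strand for INSIG1, chr5:43313413-43313662 on the - strand for HMGCS1, chr4:165327419-165327668 on the + strand for MSMO1, chr11:65111622-65111871 on the + strand for TM7SF2. Capitals mark TCACNCCAC, letters of a sterol response element, and CCAAT, letters bound by NF-Y, a factor known to work beside SREBP, each searched on both strands, so that CCAAT on the other strand appears as ATTGG. The marked matches do not overlap.
SREBF2: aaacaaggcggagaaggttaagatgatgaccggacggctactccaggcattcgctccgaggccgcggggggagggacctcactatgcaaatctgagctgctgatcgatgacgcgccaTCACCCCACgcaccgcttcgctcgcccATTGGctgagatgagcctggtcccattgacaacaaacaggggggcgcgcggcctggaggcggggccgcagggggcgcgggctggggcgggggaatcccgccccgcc
INSIG1: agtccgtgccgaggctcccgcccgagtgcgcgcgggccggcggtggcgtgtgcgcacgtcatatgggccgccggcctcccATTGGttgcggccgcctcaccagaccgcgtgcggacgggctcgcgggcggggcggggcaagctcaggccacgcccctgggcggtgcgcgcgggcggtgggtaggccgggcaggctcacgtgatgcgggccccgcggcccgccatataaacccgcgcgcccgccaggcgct
HMGCS1: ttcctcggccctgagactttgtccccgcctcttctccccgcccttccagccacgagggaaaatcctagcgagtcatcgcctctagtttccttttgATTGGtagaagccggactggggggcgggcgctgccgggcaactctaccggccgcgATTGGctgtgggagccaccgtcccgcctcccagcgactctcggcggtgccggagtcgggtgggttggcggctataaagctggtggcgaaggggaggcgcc
MSMO1: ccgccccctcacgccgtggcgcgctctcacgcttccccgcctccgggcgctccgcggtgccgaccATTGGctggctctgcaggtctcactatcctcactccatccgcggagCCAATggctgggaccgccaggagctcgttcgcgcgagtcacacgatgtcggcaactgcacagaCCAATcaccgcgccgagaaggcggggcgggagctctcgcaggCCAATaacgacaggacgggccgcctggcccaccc
TM7SF2: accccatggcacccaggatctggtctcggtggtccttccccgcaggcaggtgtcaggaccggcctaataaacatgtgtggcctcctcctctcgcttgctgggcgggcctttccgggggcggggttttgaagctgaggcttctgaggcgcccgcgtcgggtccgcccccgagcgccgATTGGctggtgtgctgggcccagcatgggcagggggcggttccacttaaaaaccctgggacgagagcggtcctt
In the window of 250 bases before to 50 after the start, TCACNCCAC was found in 1 of 38 promoters (2.63%), that of SREBF2, 133 bases before its start. It was found in 1.15% of all 27305 promoters of that length and in 1.05% of the 9563 belonging to genes measured on the array. CCAAT was found in 23 of 38 (60.5%), against 35.7% of all promoters and 37.3% of those of measured genes. Of the genes that rose, ACAT2, SQLE and FASN had no entry and are not in these counts. CCAAT was present in 11 of the 15 genes that rose and had an entry, in 3 of 9 that fell and in 6 of 9 that were not called. Of the genes shown, MSMO1 held it at 4 places, HMGCS1 at 2 and INSIG1, SREBF2 and TM7SF2 at 1 each. NSDHL, which fell, and MVK, which was not called, are not shown and each held it at more places than MSMO1. These matches are letters in a window and were not tested as binding sites.

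Of the genes for sterol uptake and storage, neither of the 2 measured was called in limma (1 at an unadjusted p under 0.05). SOAT1, which esterifies cholesterol for storage, gave 9.23, 9.09 and 9.53 in WZR6, against 9.71, 9.45 and 10.04 in parental cells. The groups overlapped, and replicate 3 was the highest array in both. The SOAT1 difference of -0.45 (95% interval -0.85 to -0.05, adjusted p = 0.0655 in limma) was called without WZR6 replicate 3 (adjusted p = 0.0406), without parental replicate 2 (0.0266) and among probe sets at or above the median level (0.0311). NPC1L1, the intestinal sterol transporter, averaged 5.40 ± 0.08 (SD) in WZR6 and 5.18 ± 0.24 in parental cells, near the lower quartile of all values.

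Of the 4 genes for fatty acid synthesis itself, 1 was higher, 1 lower and 2 not called, shares of 25% each way that lie near those over all genes (24.5% higher, 23.5% lower). FASN, fatty acid synthase, gave 8.58, 8.65 and 8.67 in WZR6, against 8.18, 8.11 and 8.12 in parental cells. The groups did not overlap, and the difference was 0.49 ± 0.05 (SE, adjusted p = 0.000154 in limma), although a second, dimmer FASN probe set of the type _x_at differed by 0.16 with no call. ACACB, the acetyl-CoA carboxylase at mitochondria, gave 6.45, 6.29 and 6.49 in WZR6, against 6.68, 6.65 and 6.53 in parental cells. The nearest ACACB arrays of the groups were less than 0.1 apart, and the call (difference -0.21, adjusted p = 0.0425 in limma) was lost without WZR6 replicate 1 or 2 or parental replicate 1 or 2, with adjusted p up to 0.121, and under 7 other alternatives, with adjusted p between 0.0523 and 0.101. ACACA, the cytosolic carboxylase, is uncertain. Its brightest probe set differed by -0.01 (95% interval -0.13 to 0.11), while another gave 6.89, 6.84 and 7.07 in WZR6, against 7.61, 7.73 and 7.59 in parental cells, a called difference of -0.71. The mean of both ACACA probe sets was called at -0.36 (adjusted p = 0.000955 in limma). ACLY, which supplies cytosolic acetyl-CoA from citrate, differed by -0.12 (adjusted p = 0.0910 in limma), and none of its 3 probe sets was called over all probe sets. ACLY was called lower under cyclic loess (adjusted p = 0.0485), among probe sets at or above the median level (0.0366) and with the variance following intensity (0.0153).

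Desaturases and elongases changed in both directions, 2 higher (40%) and 1 lower (20%) of 5 measured, against 24.5% and 23.5% over all genes. FADS3, a desaturase reported to act on sphingoid bases, gave 10.81, 10.82 and 10.72 in WZR6, against 10.22, 10.19 and 10.16 in parental cells. Its groups were apart, and both probe sets rose, by 0.59 and 0.73. FADS1, which makes polyunsaturated fatty acids, was read by 3 probe sets that also name MIR1908 and differed by -0.12 to -0.19, with 2 of the 3 called lower over probe sets. FADS2, which acts earlier on the same fatty acids, gave 7.40, 7.32 and 7.73 in WZR6, against 8.06, 8.06 and 7.63 in parental cells. Replicate 3 of each group crossed into the range of the other, and the difference of -0.43 was not called (adjusted p = 0.0518 in limma). Without parental replicate 3 FADS2 was called at -0.58 (adjusted p = 0.0120), and without WZR6 replicate 3 at -0.56 (0.0238). It was also called under 4 other alternatives, with adjusted p between 0.0218 and 0.0478. SCD, which makes monounsaturated fatty acids, gave a difference of -0.02 (95% interval -0.14 to 0.10), and none of its 4 probe sets was called.

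The elongases differed among themselves. ELOVL5, which lengthens polyunsaturated fatty acids, gave 12.57, 12.55 and 12.63 in WZR6, against 12.19, 12.24 and 12.32 in parental cells. ELOVL6, which lengthens palmitate to stearate, gave 11.69, 11.67 and 11.76 in WZR6, against 12.06, 12.09 and 12.12 in parental cells. Neither gene's groups overlapped, and ELOVL5 rose by 0.33 ± 0.05 while ELOVL6 fell by 0.38 on the log2 scale (SE 0.05). Both ELOVL6 probe sets fell. Of the 3 ELOVL5 probe sets 2 rose, and the other, at 0.25, was not called (adjusted p = 0.156 in limma over probe sets). ELOVL1, which makes very long saturated chains, was read by 2 probe sets that also name MIR6734. The brighter gave 11.08, 11.08 and 11.03 in WZR6, against 10.46, 10.37 and 10.39 in parental cells, and both were called higher over probe sets, at 0.66 ± 0.05 and 0.72 ± 0.05 (SE).

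Of the enzymes that join fatty acids to coenzyme A, ACSL1 rose, ACSL5 fell and ACSL4 was not called. ACSL1 gave 10.14, 9.998 and 10.34 in WZR6, against 9.44, 9.53 and 9.56 in parental cells, and both of its probe sets rose by 0.64 and 0.65. ACSL5 gave 8.32, 8.31 and 8.45 in WZR6, against 8.74, 8.83 and 8.84 in parental cells, a difference of -0.44 ± 0.06 (SE, adjusted p = 0.000666 in limma). The groups of each gene were apart. ACSL4, which prefers arachidonate, gave 9.46, 9.48 and 9.94 in WZR6, against 9.10, 8.87 and 9.60 in parental cells. Replicate 3 was again the highest in both groups, and the ACSL4 difference of 0.43 was not called with all 6 arrays (adjusted p = 0.132 in limma). Of the removals of a single array, that of parental replicate 3 gave a call (difference 0.64, adjusted p = 0.0217).

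**Figure D2:**
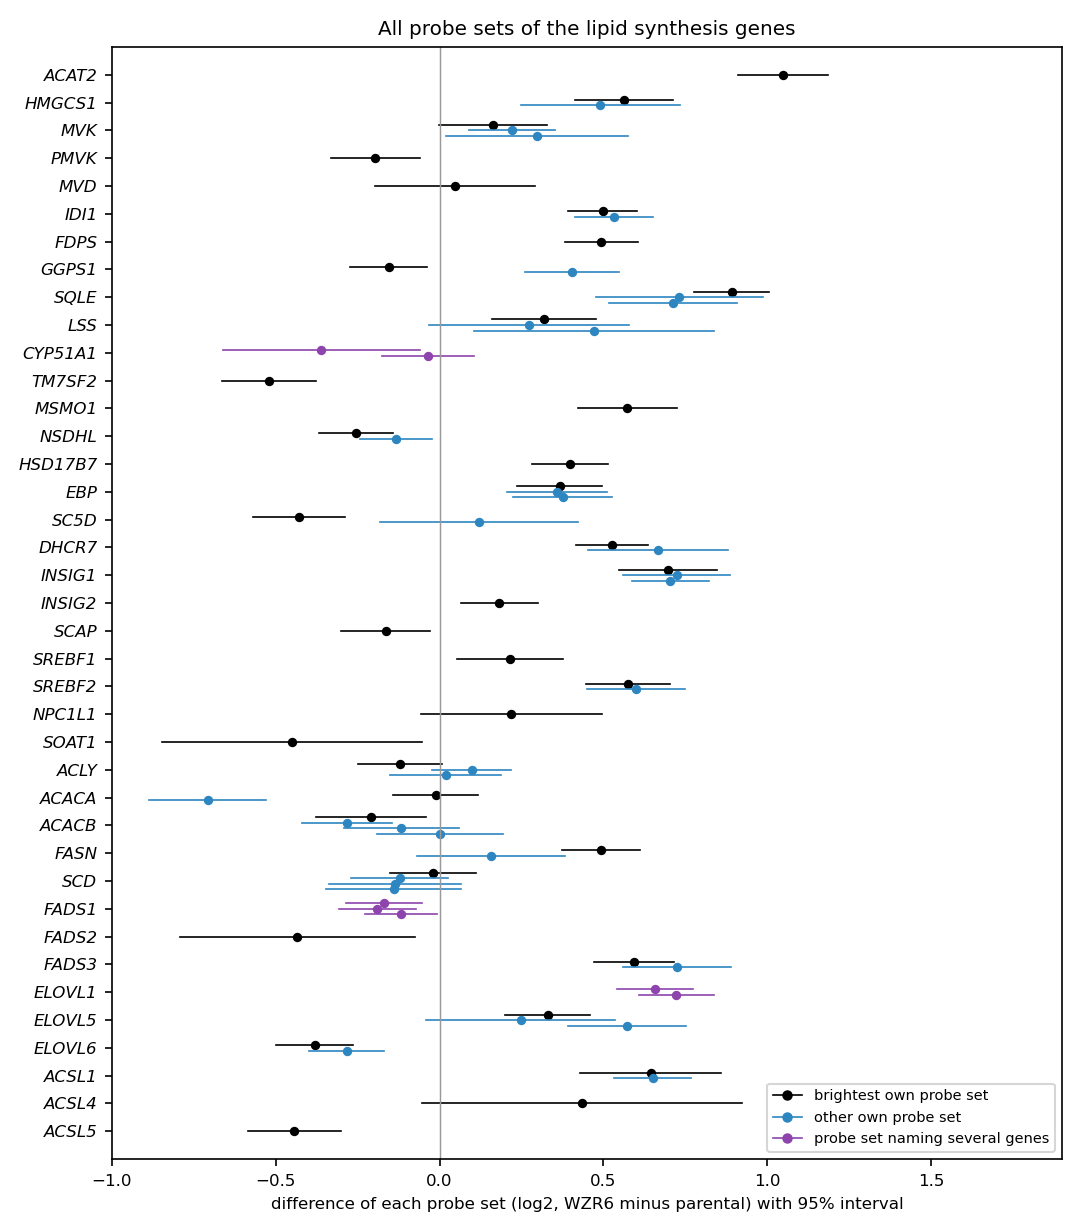
Each point is the difference of 1 probe set on the log2 scale, WZR6 minus parental, with its 95% interval from the fit over all probe sets. Black marks the brightest own probe set of a gene, blue its other own probe sets and purple probe sets that name several genes; GGPS1 lies on both sides of 0, and the 3 probe sets of INSIG1 lie together at 0.70 to 0.72.

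Of the 75 probe sets, 36 were higher (48%), 12 lower (16%) and 27 not called. Over all 22215 probe sets 41.1% were called, 21.6% as higher and 19.5% as lower. The median difference was 0.22 over the 75 and 0.03 over all probe sets. By pathway, 10 of 17 enzymes of the mevalonate, isoprenoid and cholesterol steps rose (58.8%) and 5 fell (29.4%, median 0.37). GGPS1, which is uncertain, is counted among those that fell. Of 12 fatty acid genes, 4 rose (33.3%) and 3 fell (25%, median -0.02). The shares over all genes were 24.5% higher and 23.5% lower, near those of the fatty acid genes that fell. Whether the shares of the pathways differ was not tested.

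Genes that use, store or burn the products of these pathways were read from lists of their own. For comparison, 24.5% of all genes rose and 23.5% fell. Of 11 genes that use farnesyl and geranylgeranyl groups, 5 rose (45.5%) and 4 fell (36.4%, median 0.03). RCE1 is counted among those that fell but is uncertain, since its 2 own probe sets were called in opposite directions, at -0.46 and 0.17. RABGGTB, a subunit of the transferase for RAB proteins, rose by 0.66, DHDDS, which makes the dolichol chain, rose by 0.55, and PGGT1B, a geranylgeranyl transferase subunit, differed by -0.50. Of 10 genes for sterol export, storage and liver X receptor signalling, 2 rose (20%) and 5 fell (50%, median -0.11). The share that rose lay near the 24.5% over all genes, whereas 23.5% of all genes fell. NPC2, which hands cholesterol out of lysosomes, averaged 12.16 ± 0.03 (SD) in WZR6 and 13.14 ± 0.03 in parental cells, a difference of -0.98. The sterol-binding OSBP rose by 0.50, although its other probe set was not called, and MYLIP, which targets lipoprotein receptors for degradation, rose by 0.42. Of 7 genes that supply acetyl-CoA and NADPH, 3 rose (42.9%) and 1 fell (14.3%). PGD and TALDO1, of the pentose phosphate pathway, rose by 0.30 and 0.29, and the malic enzyme ME1 by 0.24. Of the 3 ME1 probe sets 2 were called higher, and the other, at -0.18, was not called.

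Fatty acid oxidation and PPAR genes rose for 3 of 14 (21.4%) and fell for 3 (21.4%, median -0.04). These shares lay near those over all genes, 24.5% higher and 23.5% lower. PPARG, the lipid-activated receptor of fat storage, averaged 8.46 ± 0.04 (SD) in WZR6 and 9.39 ± 0.04 in parental cells. HADHA, of the mitochondrial trifunctional protein, differed by -0.63, and PPARA, a receptor that turns on oxidation genes, rose by 0.67 with a parental mean of 4.70, below the lower quartile, and its other probe set was not called. Glycerolipid and lipid droplet genes rose for 2 of 10 (20%) and fell for 3 (30%, median -0.04), also near the shares over all genes. MGLL, which splits monoglycerides, averaged 9.17 ± 0.03 in WZR6 and 10.30 ± 0.03 in parental cells, a 2.18-fold fall. DGAT1, which completes triglycerides, rose by 0.89, and PLIN2, a coat protein of lipid droplets, differed by -0.77, with a second probe set at -0.12 that was not called.

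**Figure D3:**
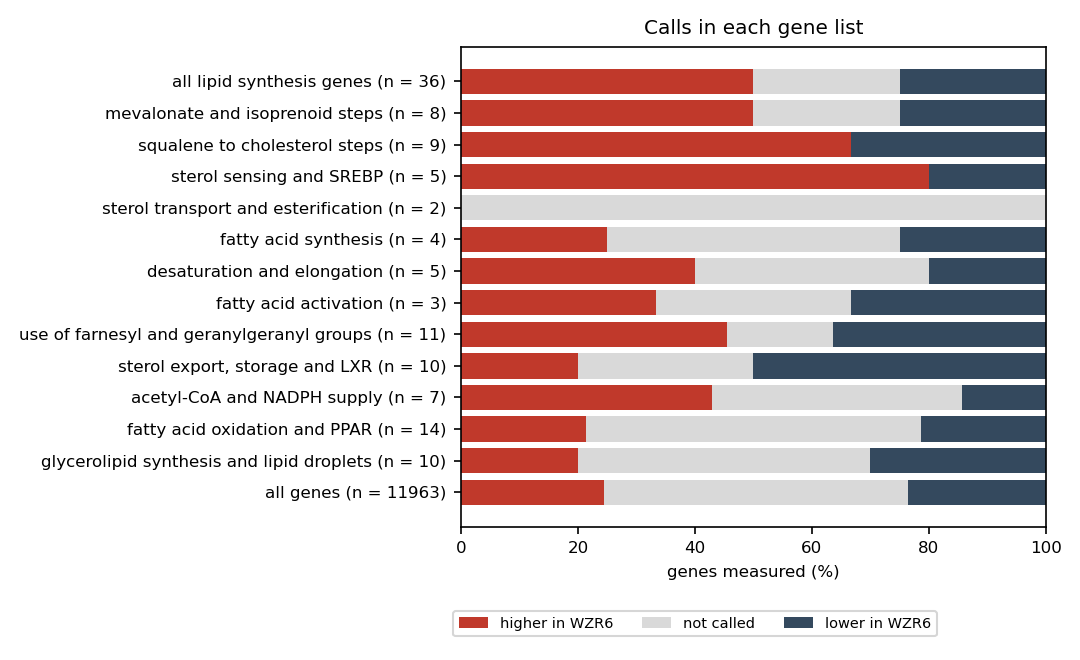
Bars give the percentage of measured genes in each list that were higher in WZR6 (red), not called (grey) or lower in WZR6 (dark blue), with the number measured beside each name. The lipid synthesis genes as a whole have 50% higher and 25% lower, against 24.5% and 23.5% in the bottom bar for all genes.

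To show the surroundings of each lipid synthesis gene, the median difference of the 10 measured genes on each side was set beside it, in the order of the RefSeq table of GRCh38.p14. Over all 11954 genes with such a value, 8.66% had a neighbour median beyond 0.3 in either direction. Among the 36 lipid synthesis genes 0 did. ACAT2 and SQLE, with the largest rises, had neighbour medians of 0.05 and -0.02. INSIG1 had the lowest, -0.26, opposite to its own difference of 0.70. FASN and ELOVL5 had the highest, 0.28 and 0.26, in the direction of their own differences of 0.49 and 0.33, and the part of the neighbourhood in those differences was not tested. Among the genes of the other lists named above, RABGGTB (0.44), MYLIP (0.38), PGD (0.40) and NPC2 (-0.42) had neighbour medians beyond 0.3 in the direction of their own differences.

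**Figure D4:**
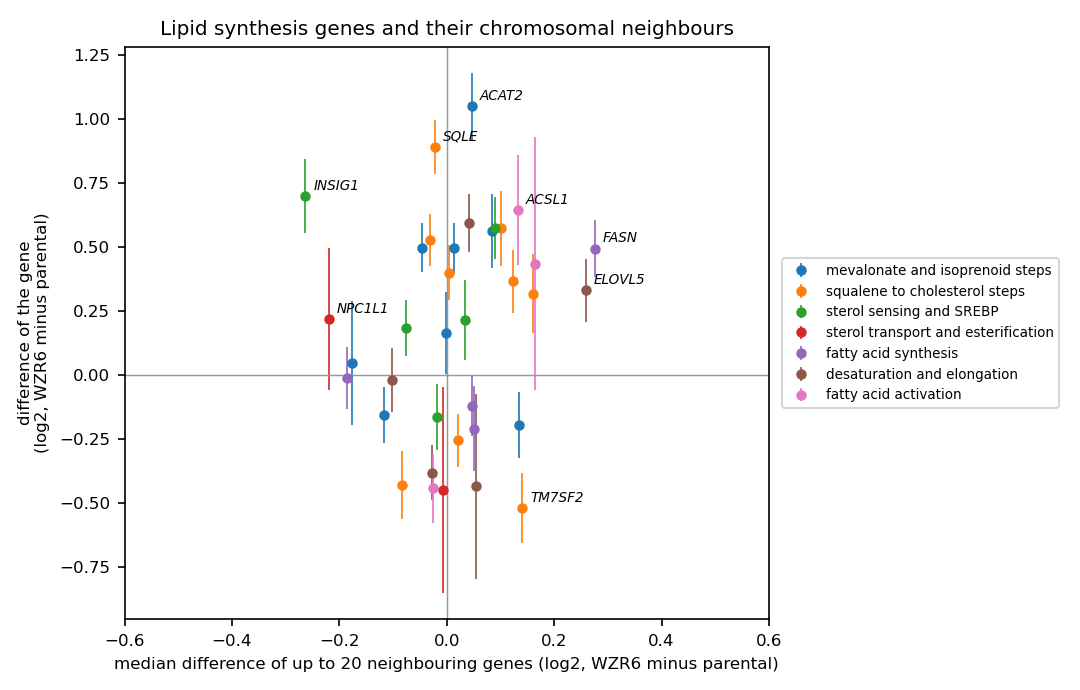
The vertical axis is the log2 difference of each measured gene, WZR6 minus parental, with its 95% interval, and the horizontal axis is the median log2 difference of up to 20 neighbouring genes. Colours give the step in lipid synthesis; all points lie within 0.3 of 0 horizontally while their own differences run from -0.52 to 1.05.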

How the data were processed

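RNA from 3 WZR6 and 3 parental NCI-H1975 samples was hybridised to oligonucleotide arrays with 1 colour. The deposited intensity values, on a linear scale with 1 for each probe set and array, were made by the authors with RMA (background subtraction, quantile normalization, summary of probes), per the submitters' processing notes. Its version and parameters were not found in the sources used here. Values ran from 9.87 to 44567. No detection calls are in the table, so which probe sets were above background is unknown. The number of arrays limits the precision.

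Intensities were turned into log2 with no pseudocount and no further normalization. The 62 control probe sets among 22277 were dropped. The platform annotation named 1 gene for 19064 probe sets, several for 1043 and none for 2108; 19052 of the first were matched to RefSeq by Entrez identifier, with 0 symbols changed. The brightest own probe set stood for each gene. Groups came from the sample titles and were compared with limma 3.58.1 in R 4.3.3 (lmFit, eBayes), over genes and over probe sets. The fit was tested on simulated data. Every-sample values were given in each step for up to 3 called genes with the largest differences and for genes with opposite probe set calls, and up to 3 called genes were named per other list; further genes with every-sample values were chosen after their values were seen. The genes and lists were chosen with earlier results of these data known.

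The alternatives rescaled the arrays (cyclic loess, median centring, quantile normalization), dropped dim probe sets, set a floor at the lower quartile, let the variance follow intensity with robust fitting, blocked by replicate number, averaged each gene's own probe sets, dropped the _x_at and _s_at types, or left out each array. Plots used matplotlib 3.10.9 and Python 3.11.15.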

Additional observations from a re-analysis of the deposited data

How the results depend on the processing

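Under every alternative that was run the count of genes that rose lay between 14 and 19, and 17 rises, 4 falls and 3 genes without a call kept their side of the threshold wherever they were tested; the other 12 genes changed call in at least 1 alternative. The count of genes that fell was 2, of 23 genes tested, without _x_at and _s_at probe sets and 5 to 9 when single arrays were left out. The median difference was 0.32 among probe sets at or above the median level, 0.32 without _x_at and _s_at probe sets, and 0.16 to 0.26 when single arrays were left out. GGPS1 turned to 0.12 as the mean of its probe sets and to 0.40 without _x_at and _s_at probe sets, and SC5D turned to 0.12 without them, since the remaining probe sets differ. Averaging both SC5D probe sets ended its call (-0.15). Median centring ended the falls of GGPS1 and SCAP, and dropping _x_at and _s_at probe sets that of SCAP. The fall of ACACB ended under median centring, quantile normalization, the floor, the variance trend, the replicate block, averaged probe sets and without _x_at and _s_at probe sets, and the rise of SREBF1 under cyclic loess and the floor. ACLY (-0.14) and FADS2 (-0.47) were called lower under cyclic loess, and both also among probe sets at or above the median level and with the variance trend. MVK and SOAT1 were called at or above the median level, and MVK and ACACA as means of their probe sets. FADS2 was also called in the fit over such means, but it has only 1 own probe set, so its values there were those of the main fit. Counts over probe sets stayed within 1.5 times. Deviations of same-numbered arrays from their group means correlated at -0.01, 0.12 and 0.23, and WZR6 replicates 1 and 2 correlated best with parental replicate 2, so the numbers were not taken to pair the samples. With the replicate number as a block 19 genes rose and 9 fell, and SOAT1 (-0.45, adjusted p = 0.00263 in limma) and ACSL4 (0.43, adjusted p = 0.00738) were called. Scaling moved the median of all genes to between -0.01 and 0.06.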
